A study of Mus musculus with 20 samples.

Results

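The 44 DNA replication genes described here encode the machinery that licenses replication origins, unwinds and copies DNA, supplies its nucleotides and repacks it into chromatin. The list was fixed by gene symbol and not by a cut on measured values, but it was drawn up with earlier results of these data known. All 44 had a row among the 23402 rows of the expression table, and all 44 were among the 12788 rows that passed a filter on low values (a 20-library mean FPKM of 0.5 or more). FPKM is fragments scaled to the length of the gene and to the size of the library, so levels of different genes can be set side by side. RNA came from tumours that MC38, a mouse colon adenocarcinoma cell line, had formed under the skin of mice. The P.T.ATBx tumours, 10 libraries, received ATBx around the tumour, and the 10 Control libraries came from tumours given vehicle. The labels name no agent, dose, schedule, mouse strain, age or sex for either group, and they do not tie libraries to separate animals. The p-values below therefore measure the spread between these libraries, which may be technical in part. The study's title concerns tumour microbes and interferon signalling, and the comparison made here is of replication gene RNA after local ATBx.

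Before S phase, the origin recognition complex, CDC6 and CDT1 load the ring-shaped MCM helicase onto DNA. In S phase, CDC45 and the GINS complex join MCM to form the active helicase, polymerase alpha with primase starts each strand, and polymerases delta and epsilon extend it, held by the sliding clamp PCNA. Many of these genes are transcribed under E2F factors late in G1, and their RNA is widely used as a mark of proliferating cells in tumours.

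Promoter sequence is shown first because E2F control is the feature these genes are best known to share. RefSeq promoter windows of GRCm38.p6, running from 250 bases before to 50 after a start listed for a gene, were at hand for 36 of the 44 genes, in 41 windows. One of the E2F words TTTCCCGC, TTTGGCGC, TTTCGCGC or TTTGCCGC, on either strand, stood in 14 of the 41 windows (34.1%), against 744 of 32851 windows of all genes (2.26%) and 501 of 12844 windows of tested rows (3.90%). The 14 windows belonged to 14 genes, and the words occurred 20 times in them, with overlaps between words on opposite strands counted separately. In 8 genes a word lay wholly upstream of the start used for its window, 3 to 158 bases before it. That start is not always the outer end of the gene. For Cdc6, Orc1, Mcm7 and Pola1 the stretches printed below lie inside the full span of the gene. The NF-Y word CCAAT, on either strand, stood in 23 of the 41 windows (56.1%), against 37.4% of all windows and 38.0% of those of tested rows. The CHR word TTTGAA stood in 5 (12.2%), against 17.9% and 12.3%. Windows of 6 genes that carry an upstream E2F word are printed below, 5′ to 3′ on the gene's own strand, with the matched letters in capitals; in Mcm6 and Mcm5 overlapping words on opposite strands are capitalised together. A match describes these letters and is not a measured binding site.
Cdc6 (chr11:98907989-98908044, plus strand): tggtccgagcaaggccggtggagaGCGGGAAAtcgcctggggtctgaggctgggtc
Orc1 (chr4:108579403-108579453, plus strand): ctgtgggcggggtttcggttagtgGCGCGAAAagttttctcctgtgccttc
Mcm5 (chr8:75109332-75109387, plus strand): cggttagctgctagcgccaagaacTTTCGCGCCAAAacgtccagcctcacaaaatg
Mcm6 (chr1:128359784-128359839, minus strand): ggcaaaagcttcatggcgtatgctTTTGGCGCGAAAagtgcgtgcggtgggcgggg
Mcm7 (chr5:138172017-138172072, minus strand): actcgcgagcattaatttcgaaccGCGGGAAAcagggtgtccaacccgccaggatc
Pola1 (chrX:93632262-93632317, minus strand): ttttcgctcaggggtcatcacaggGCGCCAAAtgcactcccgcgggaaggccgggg

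The libraries differed in ways that touch these genes. Summed FPKM ran over 556770 to 752782, and 15527 to 16345 rows per library were above 0, while read totals are unknown. In 3 libraries, P.T.ATBx 1, P.T.ATBx 4 and Control 1, levels leaned on transcript length: over 12246 tested genes with a length, Spearman's rho of a gene's deviation against length was −0.419, −0.385 and −0.607, against −0.128 or above in the other 17. The same 3 libraries gave 17.2%, 14.8% and 20.5% of their summed FPKM to the RNAs of RNase P and RNase MRP, with 7.75% to 15.0% in the other 17. Epithelial markers were low and uneven: the summed FPKM of 12 epithelial and colon genes was 13.5 to 55.0 in P.T.ATBx and 5.15 to 181 in Control, and Cdx2, which specifies intestinal epithelium, was listed at 0 in all 20 libraries. The proliferation marker Mki67 averaged 45.3 ± 7.63 FPKM in P.T.ATBx and 50.1 ± 8.94 FPKM in Control (SD, n = 10 each).

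No DNA replication gene differed between P.T.ATBx and Control tumours past the threshold. By limma with Benjamini-Hochberg adjustment over all 12788 rows, 0 of the 44 were called at an adjusted p under 0.05, where 0.845% of all rows were called (59 higher, 0.461%, and 49 lower, 0.383%, or 20 higher and 29 lower once every library was rescaled to 1 sum). The smallest adjusted p among the 44 was 0.165, for Mcm3. At an unadjusted p under 0.05, 6 of the 44 (13.6%) stood apart, as did 13.6% of all rows. All 6 were lower in P.T.ATBx, where 6.08% of all rows were lower and 7.51% higher at that level: Mcm3, Cdc6, Mcm7, Rpa2, Mcm10 and Timeless. That count was 1 once every library was rescaled to 1 sum, and with limma's arrayWeights it was 12 and Mcm3 was called (adjusted p = 0.0419). The log2 difference (P.T.ATBx minus Control, log2(FPKM + 1)) was below 0 for 34 of the 44 (77.3%) and for 48.5% of all rows. Its median was −0.06 over the 44, which is −4.18% of FPKM + 1 in linear terms, and 0.00 over all rows. Fewer cells of a type and less RNA per cell cannot be told apart in bulk tissue.

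The differences were small. They ran from −0.21 (Mcm3) to 0.07 (Rpa3), with standard errors between 0.03 and 0.10. The upper end rested on single libraries: Rpa3 was at 0.02 without P.T.ATBx 1, 0.13 without Control 1 and 0.03 without the 3 libraries with the length trend. The 95% intervals of all 44 genes lay between −0.35 and 0.26. For 40 of the 44 the whole interval lay inside a 1.2-fold difference of FPKM + 1 either way. In every gene the ranges of the groups overlapped, whereas 0.133% of all rows had groups that did not overlap. The Control median was above at least 8 of the 10 P.T.ATBx values in 17 genes, and below at least 8 in 0 genes. The share of all rows meeting these rules was not counted, and the 44 genes vary together between libraries, so these counts are descriptions only. Within a group the coefficient of variation had a median over the 44 of 8.41% in P.T.ATBx and 9.26% in Control, against 8.52% in P.T.ATBx and 9.28% in Control for the 9292 rows in the same range of levels.

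**Figure D1:**
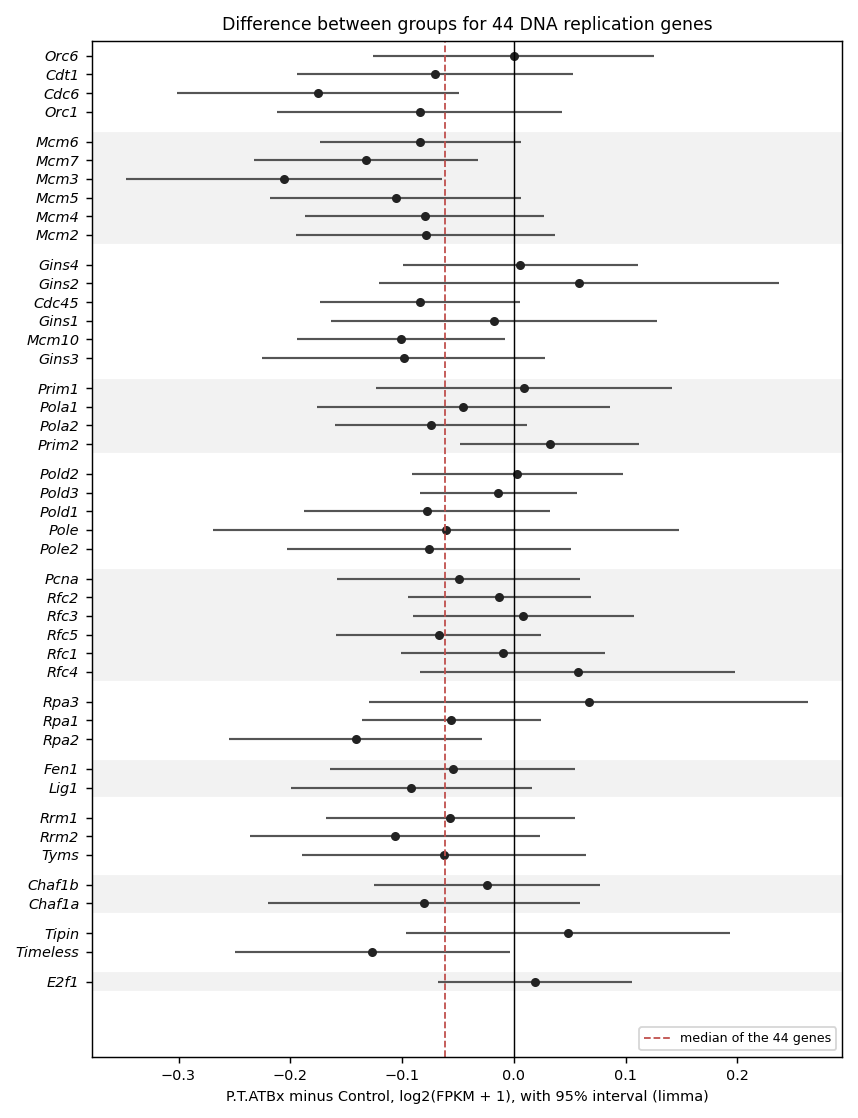
Difference between groups for each of the 44 genes, in bands by role. Points are P.T.ATBx minus Control on log2(FPKM + 1) with 95% limma intervals (n = 10 each), and the dashed line is the median of −0.06; 34 points lie left of 0, and no gene passed the adjusted threshold.

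Licensing genes covered a 7.63-fold range of levels. Cdc6, the ATPase that recruits MCM to origins, had 6.79, 8.02 and 9.22 FPKM (lowest, median, highest) in P.T.ATBx, against 7.79, 9.18 and 11.2 FPKM in Control. The groups overlapped, and the Control median exceeded 9 of the 10 P.T.ATBx values, 3 of which were below every Control library. Its log2 difference was −0.18 ± 0.06 (SE, unadjusted p = 0.00862, limma adjusted p = 0.184). Cdt1, the other MCM loader, averaged 18.7 ± 1.97 FPKM in P.T.ATBx and 19.7 ± 2.08 FPKM in Control (log2 difference −0.07, limma adjusted p = 0.658). Orc1, the largest subunit of the origin recognition complex, was the lowest of all 44 genes, at 3.95 ± 0.46 FPKM in P.T.ATBx and 4.25 ± 0.49 FPKM in Control (SD, n = 10 each). Orc6, the smallest subunit, averaged 31.3 ± 3.67 FPKM in P.T.ATBx and 31.2 ± 2.89 FPKM in Control, a log2 difference of −0.00. The order Orc6, Cdt1, Cdc6, Orc1 held in all 20 libraries.

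All 6 MCM helicase subunits had log2 differences below 0, from −0.21 to −0.08, and none passed the adjusted threshold. Mcm3 had 42.3, 52.7 and 60.7 FPKM in P.T.ATBx and 48.0, 58.7 and 71.1 FPKM in Control. The groups overlapped widely, with 9 of the 10 P.T.ATBx values under the median of Control and 2 under all of its values. Its log2 difference of −0.21 ± 0.07 (SE) had a 95% interval of −0.35 to −0.06 and an unadjusted p of 0.00628. Mcm7 had 62.5, 70.1 and 82.5 FPKM in P.T.ATBx and 68.9, 75.3 and 83.1 FPKM in Control. Here 8 of the 10 P.T.ATBx values were under the median of Control and 4 were under all of its values (log2 difference −0.13 ± 0.05 SE, limma adjusted p = 0.211). Mcm5 had 36.7, 40.6 and 46.3 FPKM in P.T.ATBx and 39.7, 41.5 and 50.9 FPKM in Control (log2 difference −0.11, limma adjusted p = 0.401). Mcm2 had 28.9, 33.9 and 38.0 FPKM in P.T.ATBx and 30.8, 35.5 and 42.7 FPKM in Control (log2 difference −0.08, limma adjusted p = 0.586). The subunits, which assemble in equal numbers, differed 2.47-fold in RNA level. The order was Mcm6, Mcm7, Mcm3, Mcm5, Mcm4, Mcm2, and each step held in at least 19 of 20 libraries; Mcm6 averaged 84.2 ± 6.79 FPKM in P.T.ATBx and 89.1 ± 4.35 FPKM in Control.

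Genes that activate the loaded helicase had log2 differences on both sides of 0. Mcm10, which helps the helicase to start unwinding, had 9.72, 10.6 and 11.9 FPKM in P.T.ATBx and 10.2, 11.9 and 12.5 FPKM in Control. In 9 of 10 P.T.ATBx libraries it was under the median of Control, with overlapping ranges (log2 difference −0.10 ± 0.04 SE, limma adjusted p = 0.320). Cdc45 averaged 26.4 ± 2.04 FPKM in P.T.ATBx and 28.0 ± 1.62 FPKM in Control (log2 difference −0.08, limma adjusted p = 0.401). The GINS subunits spanned log2 differences of −0.10 to 0.06. Gins4, the highest of this group, averaged 30.3 ± 2.40 FPKM in P.T.ATBx and 30.2 ± 2.69 FPKM in Control, and Gins3, the lowest, 7.34 ± 0.86 FPKM in P.T.ATBx and 7.93 ± 0.88 FPKM in Control. Neighbours in this order were not always separate: Gins2 was above Cdc45 in 8 of 20 libraries.

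Polymerase and primase genes had log2 differences from −0.08 (Pold1) to 0.03 (Prim2), with none at an unadjusted p under 0.05. The median was −0.02 for primase and polymerase alpha and −0.06 for polymerases delta and epsilon. For Pola1, the catalytic subunit of polymerase alpha, values were 26.0, 29.4 and 32.6 FPKM in P.T.ATBx and 21.4, 31.0 and 32.9 FPKM in Control, where 21.4 belonged to Control 1 (log2 difference −0.05, limma adjusted p = 0.808). The primase subunits had log2 differences of 0.01 (Prim1, the catalytic subunit) and 0.03 (Prim2). Means were 31.1 ± 2.66 FPKM in P.T.ATBx and 31.0 ± 3.93 FPKM in Control for Prim1, and 23.0 ± 1.21 FPKM in P.T.ATBx and 22.5 ± 1.46 FPKM in Control for Prim2. Pold2, an accessory subunit of polymerase delta, averaged 49.0 ± 2.58 FPKM in P.T.ATBx and 49.0 ± 4.25 FPKM in Control. Pole2, an accessory subunit of polymerase epsilon, averaged 9.40 ± 0.83 FPKM in P.T.ATBx and 10.00 ± 1.32 FPKM in Control. Pole, the catalytic subunit that copies the leading strand, had the widest standard error of the 44, 0.10, around a log2 difference of −0.06.

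Pcna, the sliding clamp, had the highest RNA level of the 44 genes. Its values were 180, 188 and 231 FPKM in P.T.ATBx and 182, 196 and 248 FPKM in Control. The groups overlapped over nearly their whole range, and P.T.ATBx 1 and Control 1 were the highest of their groups (log2 difference −0.05 ± 0.05 SE, limma adjusted p = 0.737). The subunits of replication factor C, which opens the clamp and loads it, stood between a 20-library mean of 22.1 FPKM for Rfc4 and the far higher clamp. Rfc4 averaged 22.6 ± 2.60 FPKM in P.T.ATBx and 21.7 ± 2.61 FPKM in Control (log2 difference 0.06, limma adjusted p = 0.770).

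The subunits of RPA, which coats single-stranded DNA, had unequal log2 differences. Rpa2 had 15.9, 17.5 and 18.8 FPKM in P.T.ATBx and 16.8, 19.5 and 22.7 FPKM in Control. All 10 P.T.ATBx values lay under the median of Control and 3 under all of its values, yet the ranges overlapped (log2 difference −0.14 ± 0.05 SE, limma adjusted p = 0.245). Rpa3 had 39.5, 46.5 and 65.8 FPKM in P.T.ATBx and 40.9, 44.3 and 68.7 FPKM in Control, a log2 difference of 0.07 ± 0.09 (SE). Rpa3 was above Rpa1 in 6 of 20 libraries, and both were above Rpa2 in level.

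In the joining of Okazaki fragments, Fen1, the flap nuclease, averaged 41.7 ± 3.07 FPKM in P.T.ATBx and 43.4 ± 4.28 FPKM in Control. Lig1, the ligase, averaged 25.2 ± 2.14 FPKM in P.T.ATBx and 26.9 ± 2.13 FPKM in Control. Of the nucleotide enzymes, Rrm1 and Rrm2 form ribonucleotide reductase and Tyms makes thymidylate. Rrm2, the subunit whose amount is regulated over the cell cycle, had 25.0, 30.2 and 37.1 FPKM in P.T.ATBx and 26.0, 33.2 and 36.7 FPKM in Control. In 9 of 10 P.T.ATBx libraries it was under the median of Control, and P.T.ATBx also held the highest value of all (log2 difference −0.11 ± 0.06 SE, limma adjusted p = 0.480). Tyms had 13.6, 15.6 and 19.0 FPKM in P.T.ATBx and 14.8, 16.0 and 19.9 FPKM in Control (log2 difference −0.06, limma adjusted p = 0.707). Rrm1 averaged 60.3 ± 5.54 FPKM in P.T.ATBx and 62.8 ± 5.13 FPKM in Control.

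Chaf1a and Chaf1b, subunits of the chromatin assembly factor that deposits histones behind the fork, had log2 differences of −0.08 and −0.02. Chaf1a averaged 19.6 ± 2.11 FPKM in P.T.ATBx and 20.7 ± 2.28 FPKM in Control, and Chaf1b 29.6 ± 2.32 FPKM in P.T.ATBx and 30.1 ± 2.45 FPKM in Control. The partners of the fork protection complex lay on opposite sides of 0. Timeless had 7.14, 8.87 and 10.8 FPKM in P.T.ATBx and 8.31, 9.76 and 10.7 FPKM in Control. In 9 of 10 P.T.ATBx libraries it was under the median of Control, and a P.T.ATBx library was also the highest of all 20 (log2 difference −0.13 ± 0.06 SE, limma adjusted p = 0.349). Tipin averaged 48.0 ± 6.11 FPKM in P.T.ATBx and 46.3 ± 5.11 FPKM in Control (log2 difference 0.05, limma adjusted p = 0.814). E2f1, an E2F transcription factor, had 11.5, 13.1 and 15.3 FPKM in P.T.ATBx and 12.1, 13.1 and 14.1 FPKM in Control. Its log2 difference was 0.02, with a 95% interval of −0.07 to 0.11, and the median log2 difference was −0.08 for the 14 genes with an E2F word and −0.06 for the 22 others with a promoter window.

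**Figure D2:**
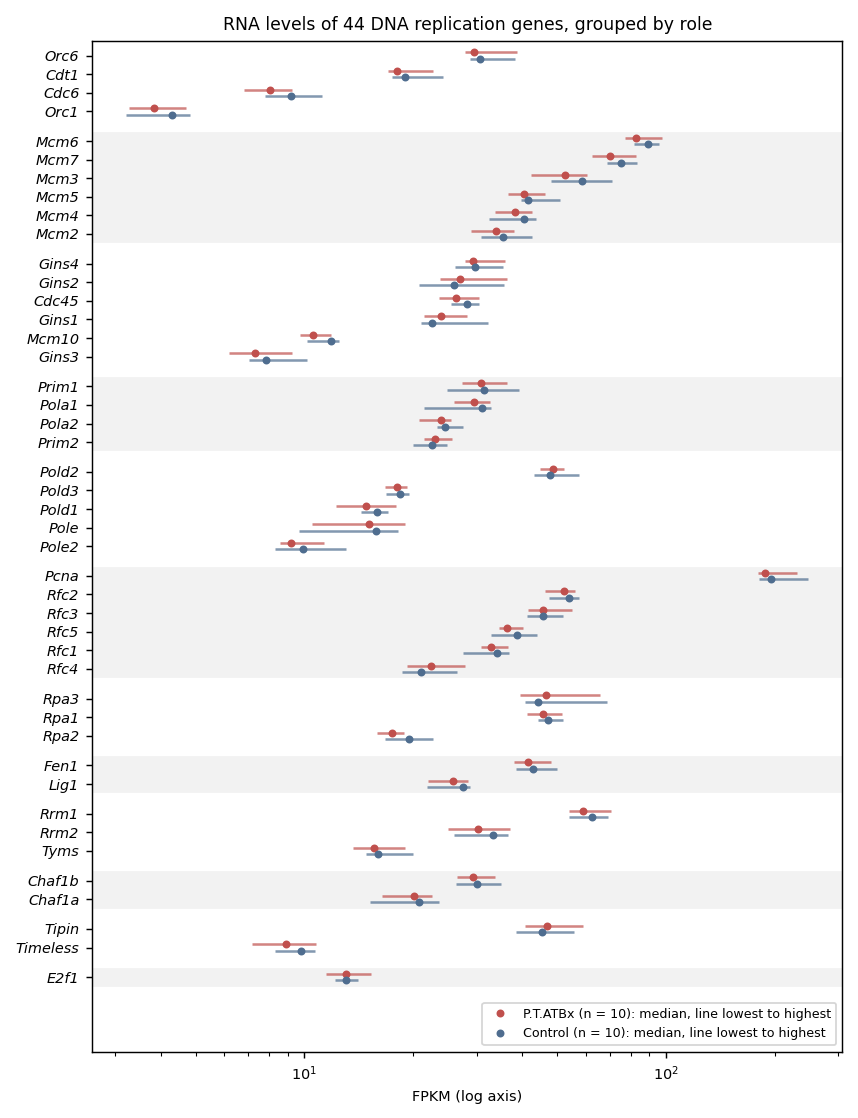
FPKM (log axis) of the 44 genes by role, each with the median (point) and the lowest to highest value (line) of 10 P.T.ATBx libraries above and 10 Control libraries below it. Levels span Orc1 to Pcna, and in every gene the lines of the groups overlap.

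**Figure D3:**
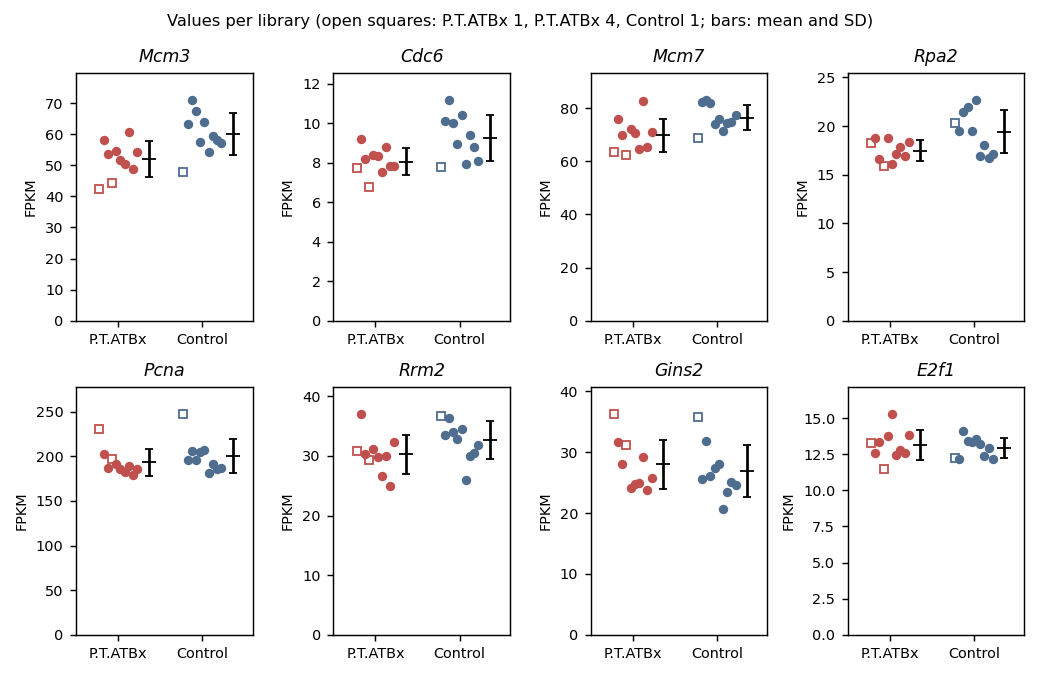
FPKM per library for 8 genes, P.T.ATBx left and Control right, from 0; bars are the mean and SD of 10 libraries, and open squares mark P.T.ATBx 1, P.T.ATBx 4 and Control 1. P.T.ATBx means are lower for Mcm3, Cdc6, Mcm7, Rpa2, Pcna and Rrm2 and higher for Gins2 and E2f1, with overlapping points. The open squares are high for Gins2 and, in P.T.ATBx 1 and Control 1, for Pcna.

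The 44 genes also varied together between libraries of the same group. The mean deviation of the 44 genes from their 20-library means was −0.11 (P.T.ATBx 9), −0.04 and 0.08 (P.T.ATBx 2) as lowest, median and highest in P.T.ATBx, and −0.10 (Control 7), 0.02 and 0.14 (Control 3) in Control, on the log2 scale. The groups overlapped over most of this range. Control 3 was the highest of the 20 libraries in 11 genes, and P.T.ATBx 9 was the lowest in 9 and Control 7 in 7. Over the 946 pairs of genes, the median Pearson's r within a group was 0.329 in P.T.ATBx and 0.392 in Control, and without P.T.ATBx 1, P.T.ATBx 4 and Control 1 it was 0.523 in P.T.ATBx (n = 8) and 0.558 in Control (n = 9). These are descriptions over pairs that share libraries, with no test. They were not set beside other rows of like level, so covariation is not shown to be particular to these genes.

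In P.T.ATBx 1, P.T.ATBx 4 and Control 1, the replication genes parted by transcript length. Lengths of the longest protein-coding transcript ran from 670 bases (Rpa3) to 7163 bases (Pole). Of the 11 shortest genes, up to 1813 bases, 10 were higher in these 3 libraries than in the other 17, with a median log2 shift of 0.23. Of the 11 longest, from 3997 bases, 10 were lower, with a median shift of −0.18. Across the 44 genes, Spearman's rho of shift against length was −0.705, and against transcript GC content −0.471, as descriptions across genes, which are not independent.

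Rpa3 stood at 65.8 FPKM in P.T.ATBx 1, 63.1 FPKM in P.T.ATBx 4 and 68.7 FPKM in Control 1, above its range of 39.5 to 50.4 FPKM in the other 17. Pole stood at 10.5 FPKM in P.T.ATBx 1, 11.6 FPKM in P.T.ATBx 4 and 9.66 FPKM in Control 1, below its range of 12.9 to 19.0 FPKM in the other 17. All 3 libraries were above the other 17 for Rfc4, Rpa3 and Tipin, and below them for Mcm2, Mcm3, Mcm4, Pole, Lig1, Chaf1a and Timeless. Gins2, with a transcript of 3900 bases, departed from the trend with a shift of 0.39. Without the 3 libraries the log2 difference between groups was −0.18 for Mcm3 (limma adjusted p = 0.149), −0.17 for Cdc6 (0.231), −0.11 for Mcm7 (0.289), −0.13 for Rpa2 (0.389), −0.09 for Mcm10 (0.406) and −0.08 for Timeless (0.451), and 0 of the 44 were called. Gins3 stood at −0.16 (unadjusted p = 0.00855, limma adjusted p = 0.208) and Lig1 at −0.08 (unadjusted p = 0.0468, limma adjusted p = 0.381) without them, the genes that joined Mcm3, Cdc6, Mcm7 and Rpa2 at an unadjusted p under 0.05. The between-group difference itself ran with length, at a rho of −0.398 with all libraries and −0.407 without the 3. In a fit with the length trend of each library as a covariate, 0 of the 44 were called, the smallest limma adjusted p was 0.0844, 7 genes were at an unadjusted p under 0.05 and 38 were below 0, with a median of −0.06. The rho of difference against length was then −0.313.

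**Figure D4:**
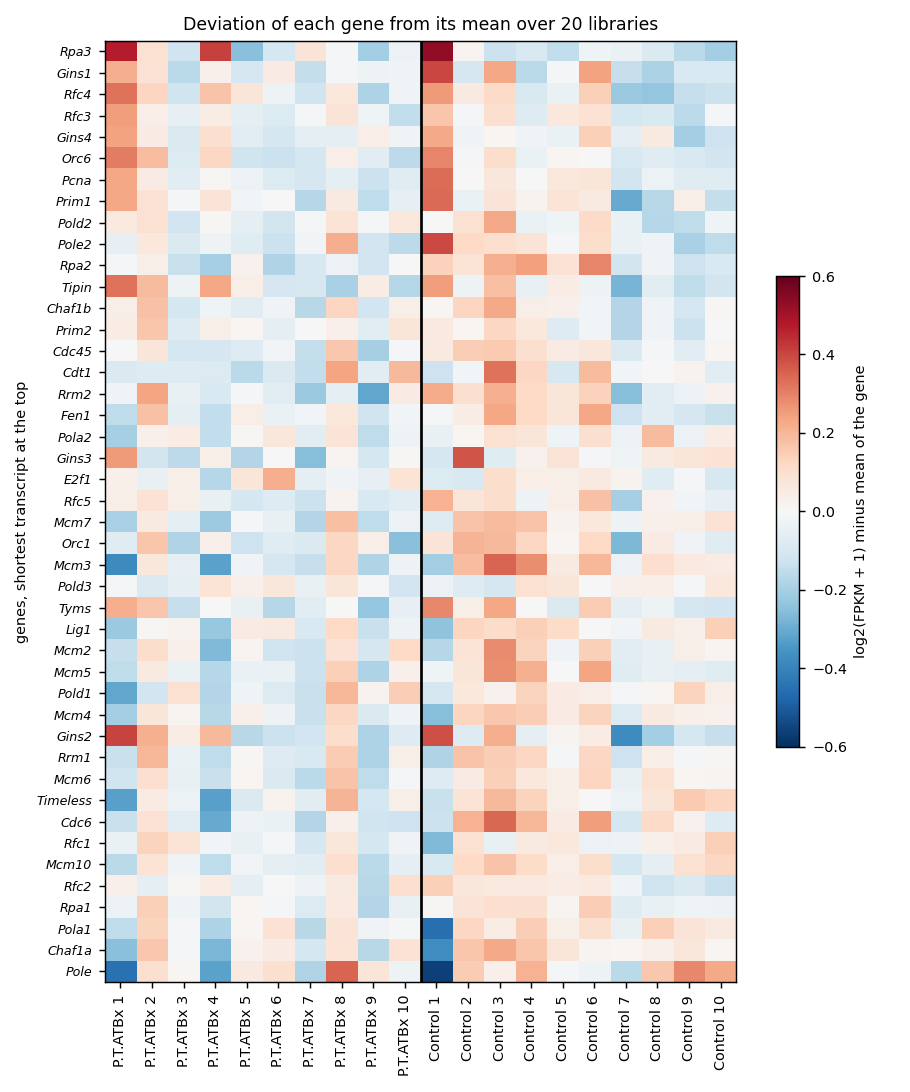
Deviation of each of the 44 genes from its own mean, in log2(FPKM + 1), for 10 P.T.ATBx libraries left and 10 Control libraries right, with genes ordered by transcript length from 670 bases at the top. P.T.ATBx 1, P.T.ATBx 4 and Control 1 turn from high at the top to low at the bottom. Control 3 is high, and P.T.ATBx 7, P.T.ATBx 9 and Control 7 are low, throughout most of the column.

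**Figure D5:**
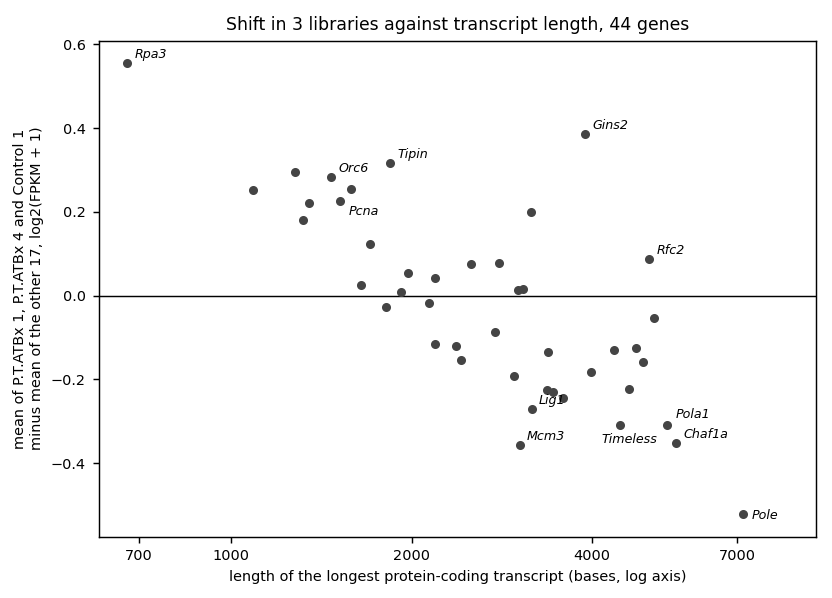
Shift of each of the 44 genes in P.T.ATBx 1, P.T.ATBx 4 and Control 1 against the other 17 libraries, in log2(FPKM + 1), plotted on transcript length (log axis). Shifts pass from 0.55 for Rpa3 to −0.52 for Pole, and Gins2 lies apart from the trend at 0.39.

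Ratios of partners within a library, which do not depend on how a library was scaled, were compared for 5 pairs by two-sided permutation tests with 100000 resamples. Cdt1 over Gmnn, whose product geminin blocks CDT1 after origins fire, was 0.549, 0.597 and 0.840 in P.T.ATBx and 0.486, 0.642 and 0.764 in Control (permutation p = 0.942). Rrm2 over Rrm1 was 0.441, 0.511 and 0.551 in P.T.ATBx and 0.463, 0.512 and 0.680 in Control (permutation p = 0.424). In both pairs the ranges of the groups overlapped. Pold1 over Pole was 0.901, 1.05 and 1.2 in P.T.ATBx and 0.915, 1.02 and 1.48 in Control (permutation p = 0.831). Chaf1b over Chaf1a was 1.39, 1.46 and 1.83 in P.T.ATBx and 1.30, 1.44 and 1.97 in Control (permutation p = 0.407). Pcna over Mki67 was 3.56, 3.94 and 7.29 in P.T.ATBx and 3.25, 3.85 and 8.93 in Control (permutation p = 0.615). After Benjamini-Hochberg adjustment over the 5 ratios every permutation p was 0.942. The highest value of 4 of the 5 ratios, all but Cdt1 over Gmnn, was in Control 1.

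Levels of 6 replication genes were set against Mki67 and the leukocyte gene Ptprc within each group, giving 24 relations on log2(FPKM + 1). Pola1 correlated with Mki67 in both groups. Pearson's r was 0.871 in P.T.ATBx (permutation p = 0.00241, adjusted 0.0289 over the 24 relations) and 0.967 in Control (permutation p = 0.00115, adjusted 0.0276). Spearman's rho was 0.770 in P.T.ATBx (permutation p = 0.0124, adjusted 0.149) and 0.806 in Control (permutation p = 0.00758, adjusted 0.149). Without the 2 libraries farthest from the median of Mki67, r was 0.804 in P.T.ATBx and 0.675 in Control; those libraries were P.T.ATBx 1 and P.T.ATBx 4, and Control 1 and Control 8. Pola1 and Mki67 have long transcripts, 5346 and 10061 bases, and Mki67 was at 27.7 to 34.2 FPKM in the 3 libraries with the length trend and 38.7 to 58.6 FPKM in the other 17. The other 22 relations did not pass the adjusted threshold, and by rho 0 of 24 did. Pcna had a negative r with Mki67, −0.620 in P.T.ATBx (permutation p = 0.0520, adjusted 0.208) and −0.849 in Control (permutation p = 0.0237, adjusted 0.142). Its rho was −0.321 in P.T.ATBx (permutation p = 0.368, adjusted 0.848) and −0.418 in Control (permutation p = 0.232, adjusted 0.621). Without the 2 farthest libraries of each group r was 0.360 in P.T.ATBx and −0.240 in Control. With all libraries kept but rescaled to 1 sum, r was 0.387 in P.T.ATBx and 0.280 in Control, so the direction turned with the scaling in both groups. With Ptprc, r was negative in 9 of the 12 relations on the deposited scale and in 2 of the 12 once every library was rescaled to 1 sum.

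No gene of 4 further replication lists was called, where 0.845% of all rows were called and 48.5% were below 0. In lists of this size a count of 0 is near that share and is a description only. Of 35 further fork and origin genes, 0 were called, 23 were below 0 and the median log2 difference was −0.02. The smallest p-values belonged to Chtf8, part of an alternative clamp loader, at 58.3 ± 2.65 FPKM in P.T.ATBx and 62.1 ± 2.98 FPKM in Control, and to Ticrr, which helps CDC45 join the helicase, at 2.41 ± 0.32 FPKM in P.T.ATBx and 2.78 ± 0.28 FPKM in Control (limma adjusted p = 0.222 and 0.258). Of 26 nucleotide supply genes, 0 were called and 18 were below 0 (median −0.03). Dck, which phosphorylates salvaged deoxycytidine, averaged 17.6 ± 1.5 FPKM in P.T.ATBx and 19.1 ± 1.53 FPKM in Control (limma adjusted p = 0.353). Of 11 histone supply and S-phase chromatin genes, 0 were called and 8 were below 0 (median −0.03). Uhrf1, which brings DNA methylation to newly copied DNA, averaged 42.9 ± 4.77 FPKM in P.T.ATBx and 47.4 ± 5.00 FPKM in Control (limma adjusted p = 0.363). Of 16 replication checkpoint genes, 0 were called and 12 were below 0 (median −0.06). Wee1, the kinase that restrains entry into mitosis, averaged 7.84 ± 0.47 FPKM in P.T.ATBx and 8.50 ± 0.49 FPKM in Control (limma adjusted p = 0.221).

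Genes acting before and after S phase came closest to the threshold. Of all rows, 0.845% were called, 13.6% were at an unadjusted limma p under 0.05 and 48.5% were below 0. Of 32 G1-S control genes, 0 were called, 20 were below 0 and the median was −0.03. At the unadjusted level stood 8 of the 32, of which 6 were lower in P.T.ATBx. The higher ones were Cdkn2b (log2 difference 0.17, unadjusted limma p = 0.0217) and Cdkn1b (0.13, unadjusted limma p = 0.0307), which encode inhibitors of the cycle. Ccnd1, the cyclin D that drives entry into the cycle, averaged 125 ± 8.53 FPKM in P.T.ATBx and 144 ± 14.7 FPKM in Control (log2 difference −0.20, limma adjusted p = 0.0752). Ccnd2 averaged 18.6 ± 1.97 FPKM in P.T.ATBx and 21.6 ± 2.41 FPKM in Control (−0.21, limma adjusted p = 0.121). Of 20 mitosis genes, 0 were called and 18 were below 0 (median −0.07), and 4 were at an unadjusted limma p under 0.05, all lower. Aurkb, a kinase of chromosome segregation, averaged 31.2 ± 1.63 FPKM in P.T.ATBx and 35.0 ± 2.45 FPKM in Control (−0.16, limma adjusted p = 0.0608). Foxm1, a transcription factor of mitotic genes, averaged 14.0 ± 1.39 FPKM in P.T.ATBx and 16.7 ± 1.62 FPKM in Control, with all 10 P.T.ATBx values under the median of Control (−0.23, limma adjusted p = 0.061). Whether these lists differ from the replication genes was not tested. The count of 0 called held in only 6 of 13 alternatives for the mitosis genes, where 0 to 3 were called. For the G1-S control genes it held in 10 of 13, where 0 to 2 were called.

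Markers of the other cells in the tumour were measured beside these genes. Of 12 tested leukocyte genes 0 were called, with a median log2 difference of −0.02, and the summed FPKM of the list was 241, 327 and 410 in P.T.ATBx and 257, 334 and 377 in Control. Of 9 fibroblast, endothelial and pericyte genes 1 was called, where 0.845% of all rows were. This was Dcn, a matrix proteoglycan of fibroblasts, at 543 ± 39.5 FPKM in P.T.ATBx and 672 ± 40.1 FPKM in Control (log2 difference −0.31, limma adjusted p = 0.00125). Of the 9, 7 were below 0 and 2 above, with a median of −0.05. At an unadjusted limma p under 0.05 stood 3, of which 2 were lower. Pdgfrb went the other way from Dcn, at 0.13 to 0.21 over 13 alternatives. The sum of that list was 1020, 1180 and 1270 FPKM in P.T.ATBx and 1170, 1320 and 1610 FPKM in Control. Of 11 tested skeletal muscle, keratinocyte and adipocyte genes 0 were called, with sums of 78.8, 214 and 413 FPKM in P.T.ATBx and 65.2, 218 and 1440 FPKM in Control. Of 7 tested epithelial and colon genes 0 were called, and their list summed to a median of 24.6 FPKM in P.T.ATBx and 39.0 FPKM in Control. Cdx2 and Muc2, defining genes of intestinal epithelium, were at 0 in at least 10 of the 20 libraries. The part of cell composition in the small replication gene differences was not tested. In a fit with Ptprc as a covariate, 0 of the 44 were called, as without it, and the smallest limma adjusted p was 0.133. That fit cannot decide the question, because Ptprc itself differed little between groups (log2 difference −0.04, limma adjusted p = 0.931) and stands for leukocytes only.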

How the data were processed

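The authors deposited 1 table of FPKM for 20 libraries, built with a stranded total RNA kit per the labels' protocols. The submitters' processing notes name the build mm10. Aligner, quantifier and gene models: not given in the sources used here. FPKM is not a count and the depth is unknown. The upper quartile differed by at most 1.05-fold between libraries, so a further scaling may have been applied. Libraries were grouped by title. Rows whose mean FPKM reached 0.5 were fitted as log2(FPKM + 1), which understates changes of low genes, in limma 3.58.1 (R 4.3.3) with group alone, robust and trended moderation, two-sided, and Benjamini-Hochberg adjustment over 12788 rows at 0.05. The script was tested on simulated data. Ratios and relations were tested by permutation in Python 3.11.15, with 100000 resamples. Lengths came from GENCODE M21. Near-identical gene copies may share reads.

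Named were genes past the threshold, the 8 smallest p-values, Mcm2, Mcm5, Pcna, Cdc6, Cdt1, Rrm2, Tyms and E2f1, the highest and lowest gene of each role, up to 4 genes per related list, and genes of ratios and relations; other genes, and the libraries with the length trend, were chosen after their values were seen. The members and lists were chosen with earlier results of these data known. Alternatives were other pseudocounts, filters, scalings, weights, moderation, the replicate block, covariates and libraries left out.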

Additional observations from a re-analysis of the deposited data

Results flagged for a closer look

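In 98 sets of 10 values (44 genes and 5 ratios in each group), 16 had a highest or lowest library far from the rest, by a gap to its nearest neighbour too wide for the range by Dixon's 95% value. Chance alone marks about 1 in 20 such sets, or 4.90 of 98. The sets share libraries and the ratios reuse genes of the 44, so the sets are not independent and this comparison is not a test. All but 1 of the 16 were in P.T.ATBx 1 or Control 1, which are among the 3 libraries with the length trend, and causes were not tested.

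P.T.ATBx 1 was highest of its group for Gins3 (9.26 FPKM, next 7.80), Pcna (231, next 203) and Rfc3 (55.1, next 48.8). Control 1 was highest of its group for Orc6 (38.3 FPKM, next 33.6), Pole2 (13, next 10.6), Pcna (248, next 207) and Rpa3 (68.7, next 47.7). It was lowest for Pola1 (21.4 FPKM, next 28.6), Rfc1 (27.5, next 32.2), Lig1 (21.8, next 25.6) and Chaf1a (15.2, next 20.2). Its ratios were the highest for Rrm2 over Rrm1 (0.680, next 0.540), Pold1 over Pole (1.48, next 1.18), Chaf1b over Chaf1a (1.97, next 1.48) and Pcna over Mki67 (8.93, next 4.25). The remaining value was Gins3 in Control 2 (10.2 FPKM, next 8.12).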

How the results depend on the processing

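Of the 44 genes, 0 were called under 12 of 13 alternatives and in all 20 fits that left out a library (0 to 0); limma's arrayWeights called 1, Mcm3 (log2 difference −0.20, limma adjusted p = 0.0419). The median difference stayed between −0.07 and −0.04, and between −0.08 and −0.05 with a library left out. Genes at an unadjusted p under 0.05 were 6 in the reported fit, 1 on rescaling to 1 sum per library, 12 with arrayWeights, 11 in the replicate block, and 4 to 12 with a library left out (10 without P.T.ATBx 2, 11 without Control 1, 12 without P.T.ATBx 8 or Control 7). The labels do not say whether the replicate numbers pair the samples. Correlations of same-numbered deviations ran from −0.315 to 0.393. They were not set against differently numbered libraries, so they cannot settle it. In the replicate block 0 of the 44 were called, with a smallest adjusted p of 0.0931. Calls over all rows were 108 as reported, 306 with arrayWeights, 221 with Ptprc as a covariate, 326 with the length trend as a covariate, 49 on rescaling to 1 sum, 67 without the 4 libraries of largest RNase P and MRP share, 62 without the 3 of strongest length trend, and 69 (without P.T.ATBx 4) to 193 (without Control 1) with a library left out, 162 being the count without Control 2. Mitosis genes called were 2 under quantile normalization, 3 with arrayWeights, 1 in the replicate block, 3 with Ptprc, 3 with the length trend as a covariate, 1 without the 4 libraries of largest RNase P and MRP share, 1 without the 3 libraries of strongest length trend, and 0 to 2 with a library left out (above 0 without Control 1, Control 9 or P.T.ATBx 2). G1-S genes called were 1 with arrayWeights, 1 with Ptprc, 2 with the length trend and 0 to 1 with a library left out (1 without Control 1 or P.T.ATBx 2), and 1 leukocyte gene, Cd68, was called with Ptprc. On rescaling to 1 sum, r with Mki67 in P.T.ATBx passed the adjusted threshold for Mcm2 (0.872), Cdc6 (0.907) and E2f1 (0.836), and r of Pcna with Mki67 turned positive in both groups (0.387 in P.T.ATBx, 0.280 in Control). The ratios and the other lists kept their side of the threshold. The 3 alternatives that use the length trend or the RNase P and MRP share were chosen after seeing the data. Causes of these changes were not tested.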
